A study of Homo sapiens with 16 samples.

Results

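The TCF/LEF transcription factors, which carry Wnt signals to DNA, and their nuclear cofactors were followed in cultures of SW480, a line from a human colorectal tumour with a truncated APC gene and active beta-catenin. The set comprised the DNA-binding factors TCF7, LEF1, TCF7L1 and TCF7L2, the coactivator adaptors BCL9, BCL9L, PYGO1 and PYGO2, and the corepressors TLE1 and TLE3. Every probe set annotated to exactly 1 of these genes was taken, whatever its values, which gave 28 of the 54613 probe sets tested, for 9 of the 19775 genes with a probe set of their own. LEF1 had 3 probe sets, TCF7L1 had 1, TCF7L2 had 7, BCL9 had 1, BCL9L had 2, PYGO1 had 3, PYGO2 had 2, TLE1 had 5 and TLE3 had 4. TCF7 was paired with 0 probe sets in the annotation used and was not analysed here.

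The 16 arrays formed 4 groups of 4, with biological replicates lettered A to D. siTAZ cells carried a stable empty vector and received an siRNA against TAZ (gene WWTR1), a coactivator that binds TEAD factors. sibcat cells carried the same empty vector and received an siRNA against beta-catenin (gene CTNNB1). APC cells stably carried a wild-type APC vector and received the control siRNA. siGFP cells, the controls, carried the empty vector and received the control siRNA, against GFP. All groups were SW480 cells grown in serum-supplemented medium and exposed to the same transfection reagent. APC cells therefore differed from siGFP cells by the stable vector, and siTAZ and sibcat cells by the target of the siRNA. The labels name 1 siRNA condition for each target and do not say whether the APC or empty-vector cells were 1 clone or several.

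Without a Wnt signal, TCF/LEF proteins sit on target genes together with TLE (Groucho) corepressors. APC is part of the complex that marks beta-catenin for destruction. When beta-catenin accumulates it binds the TCF/LEF protein, displaces TLE and recruits BCL9 or BCL9L, which in turn bind the PHD-finger proteins PYGO1 or PYGO2. In colon epithelium TCF7L2 is the main TCF factor, LEF1 is largely absent from normal mucosa and appears in many colorectal cancers, and TCF7L1 acts mostly as a repressor.

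The checks on the targets ran as follows, on the log2 scale. All 3 WWTR1 probe sets fell in siTAZ cells, with differences between −3.48 and −2.89. In the other treated groups 2 of the 3 rose, by 0.52 and 0.70 in sibcat cells and by 0.84 and 0.72 in APC cells. The remaining WWTR1 probe set was not called there, at −0.22 in sibcat cells and 0.07 in APC cells. All 3 CTNNB1 probe sets fell in sibcat cells, with differences between −3.22 and −0.40, and 2 of them also fell in APC cells. In siTAZ cells 1 of the 3 CTNNB1 probe sets rose, by 0.40 (limma adjusted p = 0.00126), and the rest were not called. Of 5 APC probe sets, 2 rose in APC cells. One rose by 0.40, and another by 1.11, the size of which is uncertain because its means, 5.07 in APC cells and 3.96 in siGFP cells, were below the median probe set level of 5.10. The brightest differed by 0.08 (adjusted p = 0.742). Array medians lay between 5.06 and 5.12, and arrays of a group correlated at 0.9934 to 0.9979 over all probe sets. All 8 markers of colorectal epithelium reached the median level in every group, and 1 rose and 3 fell in siTAZ cells, 2 rose and 1 fell in sibcat cells and 5 fell in APC cells. CDH1 (E-cadherin) averaged 8.75 in siTAZ cells, 10.29 in sibcat cells, 10.01 in APC cells and 9.88 in siGFP cells. CDX2, an intestinal transcription factor, averaged 7.04 in siTAZ cells, 5.59 in sibcat cells, 6.12 in APC cells and 6.56 in siGFP cells. VIL1 went the other way from CDX2 in sibcat cells, with means of 5.84 in siTAZ, 6.98 in sibcat, 5.56 in APC and 5.96 in siGFP cells. The markers that fell in APC cells were KRT8, KRT18, KRT19, VIL1 and CDX2. Among leukocyte markers, 4 of 7 stayed below the median level in every group, as did 3 of 5 fibroblast and 2 of 3 endothelial markers. PTPRC, the pan-leukocyte marker, stayed at means of 3.01 to 3.15. Only CD14 of the 7 leukocyte markers was called, and it was higher in all 3 treated groups, at means of 5.20 in siTAZ cells, 6.24 in sibcat cells and 5.08 in APC cells against 4.60 in siGFP cells. Array sums of the 7 leukocyte levels ran from 28.3 to 29.7 in siTAZ cells, 29.3 to 30 in sibcat cells, 28.5 to 29.5 in APC cells and 28.1 to 30.3 in siGFP cells. The part of these marker shifts in the results was not tested. The gap between 3′ and 5′ probe sets of ACTB, which widens as RNA degrades, averaged 2.56 ± 0.39 in siTAZ cells, 2.30 ± 0.24 in sibcat cells, 2.08 ± 0.32 in APC cells and 2.05 ± 0.16 in siGFP cells (log2, SD, n = 4 each). Against siGFP the exact two-sided permutation p was 0.0571 for siTAZ, 0.171 for sibcat and 0.914 for APC cells, and 0.0286 is the smallest this design allows.

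The 250 bases before and 50 after annotated start sites were available from RefSeq (GRCh38.p14) for every gene of the set except BCL9L, TCF7 included, as 15 windows of 9 genes. One window each is printed for LEF1, TCF7L2 and TLE3, whose values the results turn on, with the shared TCF/LEF core CTTTG, or CAAAG where it lies on the other strand, in capitals. TCF7L2 and TLE3 also had windows that are not printed. The printed TCF7L2 window held 0 cores, and its other windows held 3 and 1. The printed TLE3 window held 1, and its other windows held 0 each. The printed windows therefore do not stand for the others of these genes.
LEF1, chr4:108166252-108166551, minus strand: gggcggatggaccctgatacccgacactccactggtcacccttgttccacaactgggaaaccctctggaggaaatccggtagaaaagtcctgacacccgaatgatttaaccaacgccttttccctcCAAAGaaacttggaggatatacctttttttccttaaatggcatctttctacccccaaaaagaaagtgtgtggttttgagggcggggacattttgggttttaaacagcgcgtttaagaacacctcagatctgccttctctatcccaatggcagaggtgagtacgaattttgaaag
TCF7L2, chr10:112949997-112950296, plus strand: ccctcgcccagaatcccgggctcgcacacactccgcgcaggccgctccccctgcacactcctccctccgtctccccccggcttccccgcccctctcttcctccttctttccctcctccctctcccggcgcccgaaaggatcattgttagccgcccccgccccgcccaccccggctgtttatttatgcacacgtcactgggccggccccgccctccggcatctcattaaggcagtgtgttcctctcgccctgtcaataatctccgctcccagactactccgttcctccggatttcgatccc
TLE3, chr15:70096703-70097002, minus strand: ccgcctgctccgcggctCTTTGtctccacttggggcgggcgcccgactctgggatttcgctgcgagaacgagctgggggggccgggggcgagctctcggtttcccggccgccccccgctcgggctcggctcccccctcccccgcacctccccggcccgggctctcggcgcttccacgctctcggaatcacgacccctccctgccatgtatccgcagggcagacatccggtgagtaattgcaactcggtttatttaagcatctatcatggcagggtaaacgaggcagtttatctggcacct
The core was found in 6 of the 15 windows, and in 47.5% of 35116 annotated promoter windows of the same length. The longer TCF/LEF motif, CTTTGAA or CTTTGAT on either strand, was in 0 of 15 windows against 6.86% of all windows. The TEAD motif GGAATG, also searched on both strands, was in 0 of 15 windows against 14.0%. These matches describe letters in short windows and identify no bound site.

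TLE3 separated the siRNA against TAZ from the other conditions most plainly. Its brightest probe set, 212770_at, read 9.31, 9.27, 9.36 and 9.35 in siTAZ cells, 8.14, 8.04, 8.18 and 8.18 in sibcat cells, 8.39, 8.35, 8.30 and 8.28 in APC cells, and 8.73, 8.62, 8.71 and 8.79 in siGFP cells (log2, arrays A to D). The 4 groups did not overlap, in the order siTAZ, siGFP, APC and sibcat from high to low. In siTAZ cells TLE3 was 1.53-fold that in siGFP cells (log2 difference 0.61, SE 0.06, limma adjusted p = 4.97e-07). In sibcat cells it fell by 0.58 (SE 0.06, limma adjusted p = 5.44e-07), and in APC cells by 0.38 (SE 0.06, limma adjusted p = 6.1e-05).

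All 4 TLE3 probe sets moved the same ways: each rose in siTAZ cells, by 0.59 to 0.74, and each fell in sibcat cells, by 0.29 to 0.58, and in APC cells, by 0.37 to 0.43. The 0.74 belonged to 228340_at, which read 7.74, 7.78, 7.60 and 7.68 in siTAZ cells, 6.59, 6.76, 6.59 and 6.58 in sibcat cells, 6.72, 6.47, 6.59 and 6.58 in APC cells, and 6.99, 6.97, 6.86 and 7.02 in siGFP cells. On this probe set the sibcat and APC arrays overlapped, and siGFP lay between them and siTAZ. For 206472_s_at the lower sibcat call rested on groups that touched, since 1 sibcat array and 1 siGFP array both read 7.23. With the ACTB gap as a covariate, the 4 TLE3 increases in siTAZ cells were 0.53 to 0.68 and all passed the test.

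**Figure D1:**
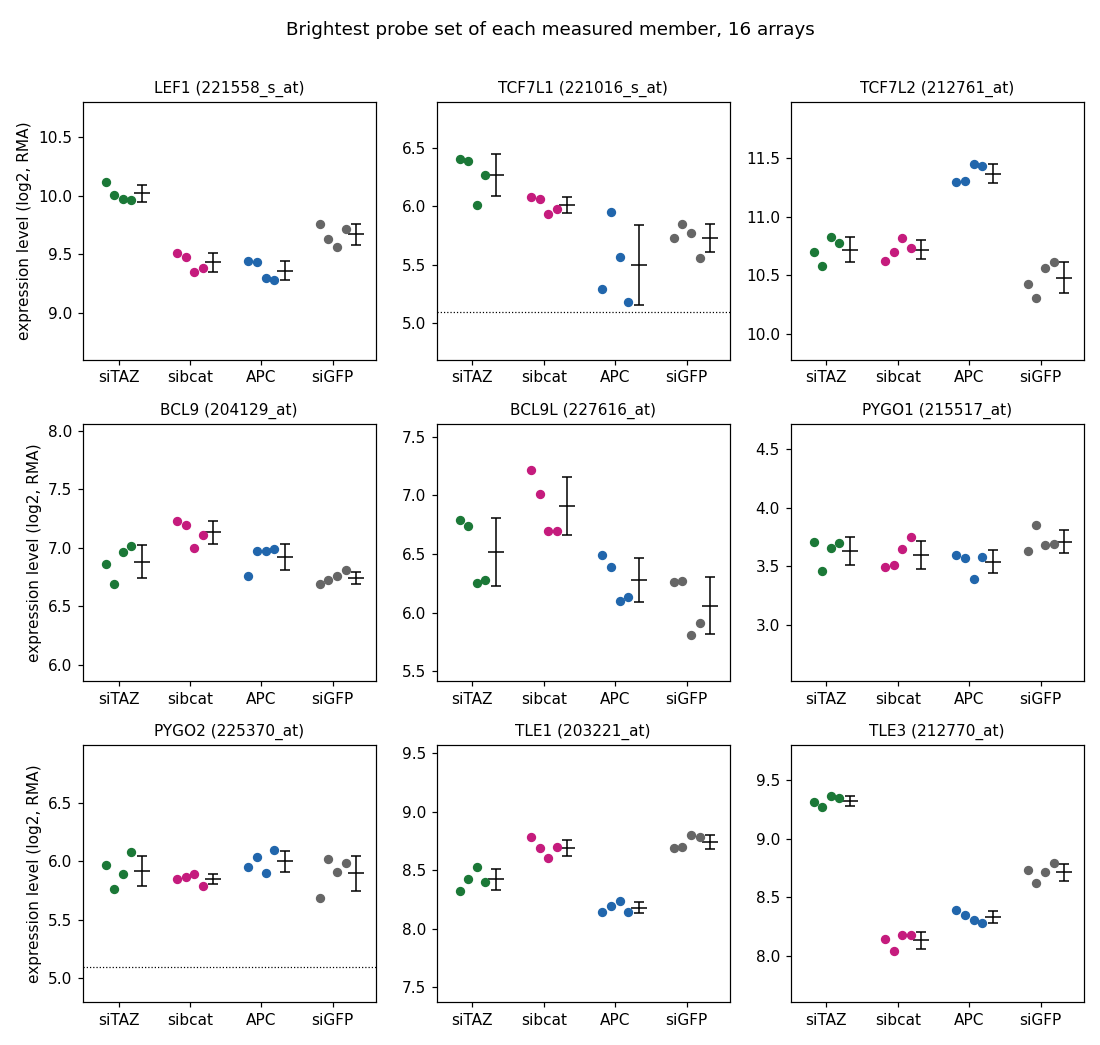
RMA log2 level of the brightest probe set of each of the 9 measured genes on each array, with siTAZ, sibcat, APC and siGFP cells from left to right. Points are arrays A to D, bars are the mean ± SD of 4 arrays, the dotted line is the median probe set level of 5.10, and each panel has its own vertical range of equal length. TLE3 sits highest in siTAZ cells and TCF7L2 highest in APC cells.

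TLE1, the other Groucho corepressor of the set, fell in APC cells on its 3 probe sets above the median level. On 228284_at, TLE1 read 7.67, 7.85, 8.0 and 7.80 in siTAZ cells, 7.74, 7.51, 7.85 and 7.86 in sibcat cells, 7.14, 7.04, 7.43 and 7.40 in APC cells, and 8.26, 8.20, 8.40 and 8.34 in siGFP cells. Every siGFP array was above every array of the other groups, every APC array was below them, and siTAZ and sibcat overlapped. The level in APC cells was 48.4% of that in siGFP cells (log2 difference −1.05, SE 0.10, limma adjusted p = 3.91e-07). The same probe set fell in siTAZ cells by 0.47 (limma adjusted p = 0.00237) and in sibcat cells by 0.56 (limma adjusted p = 0.000374). With the ACTB gap as a covariate the siTAZ value was −0.25 (limma adjusted p = 0.0455).

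The TLE1 probe sets did not give 1 answer for sibcat cells. On 203221_at, TLE1 read 8.32, 8.42, 8.53 and 8.40 in siTAZ cells, 8.78, 8.69, 8.60 and 8.70 in sibcat cells, 8.14, 8.19, 8.24 and 8.14 in APC cells, and 8.69, 8.70, 8.80 and 8.78 in siGFP cells. Here siTAZ and APC lay below siGFP, with differences of −0.32 (limma adjusted p = 0.000723) and −0.56 (limma adjusted p = 1.51e-06), while sibcat and siGFP overlapped. The sibcat difference was −0.05 (95% interval −0.18 to 0.08, limma adjusted p = 0.648). Probe set 203222_s_at gave −0.43 in siTAZ, −0.03 in sibcat and −0.57 in APC cells, of which those in siTAZ and APC cells passed the test. With the ACTB gap as a covariate the siTAZ difference of 203222_s_at was −0.25 (limma adjusted p = 0.128). The other 2 TLE1 probe sets were below 5.10 in every group, and neither was called in any comparison with siGFP.

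TCF7L2, the main TCF factor of colon epithelium, rose in APC cells on all 7 of its probe sets, by 0.59 to 0.97. The brightest, 212761_at, read 10.70, 10.58, 10.83 and 10.78 in siTAZ cells, 10.62, 10.70, 10.82 and 10.73 in sibcat cells, 11.30, 11.31, 11.45 and 11.43 in APC cells, and 10.43, 10.31, 10.56 and 10.61 in siGFP cells. APC arrays stood apart above all others, whereas the siTAZ arrays overlapped both sibcat and siGFP. Its level in APC cells was 1.86-fold that in siGFP cells (log2 difference 0.89, SE 0.08, limma adjusted p = 9.6e-08). The largest TCF7L2 difference, 0.97 or 1.96-fold, was on 216511_s_at, which read 8.80, 8.82, 9.0 and 8.93 in APC cells against 7.60 to 8.04 in siTAZ cells, 7.91 to 8.09 in sibcat cells and 7.70 to 8.18 in siGFP cells.

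In the siRNA groups 2 of the 7 TCF7L2 probe sets were called. On 212761_at the differences were 0.25 in siTAZ cells (limma adjusted p = 0.0315) and 0.24 in sibcat cells (limma adjusted p = 0.0287). Each of these calls ended in a fit of the 2 groups alone, with adjusted p of 0.0833 and 0.0619. Each also ended without siGFP replicate A or B, without siTAZ replicate A, C or D for siTAZ cells, and without sibcat replicate B, C or D for sibcat cells, with differences of 0.18 to 0.25. The dimmer 236094_at was also called, at 0.45 in each siRNA group. In siTAZ cells it came to 0.18 with the ACTB gap as a covariate (limma adjusted p = 0.0893). The other 5 TCF7L2 probe sets were not called in siTAZ or sibcat cells. In sibcat cells 216037_x_at, at 0.17, passed in 4 of 18 alternative fits. One had the replicate letters as a block (limma adjusted p = 0.0396), and another the ACTB gap as a covariate (0.22, limma adjusted p = 0.0176). The siTAZ difference of 212762_s_at was 0.79 in replicates A and B and −0.21 in C and D.

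Within every group, replicates A and B differed from C and D over many probe sets, and 212759_s_at of TCF7L2 showed this strongly. It read 6.59, 6.62, 6.15 and 6.04 in siTAZ cells, 6.67, 6.49, 5.99 and 5.88 in sibcat cells, 7.20, 7.06, 6.33 and 6.30 in APC cells, and 6.29, 6.40, 5.49 and 5.68 in siGFP cells. A and B were above C and D in all 4 groups, so the APC and siGFP ranges overlapped. The APC difference of 0.76 passed the test (limma adjusted p = 0.0347), and not without APC replicate A or B or siGFP replicate C or D, where adjusted p was 0.101 to 0.120. It was 0.79 in A and B alone and 0.73 in C and D alone. With the letters as a replicate block, 0.39 in siTAZ and 0.29 in sibcat cells also passed, at limma adjusted p of 0.00224 and 0.0112 against 0.355 and 0.479 without it. With the ACTB gap as a covariate the siTAZ value took the other sign, −0.20 (limma adjusted p = 0.566). The labels do not say what separates the letters.

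**Figure D2:**
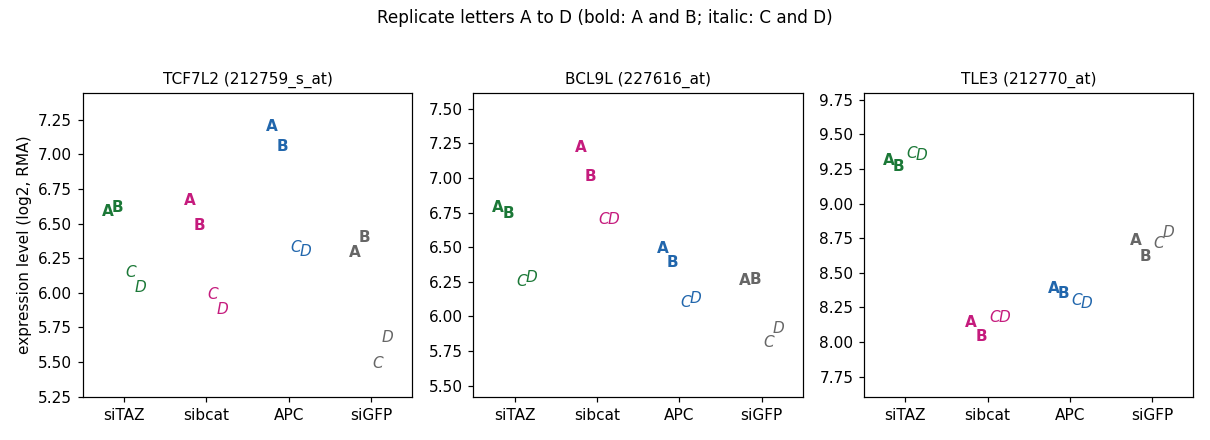
RMA log2 level by replicate letter in siTAZ, sibcat, APC and siGFP cells, with 1 letter per array, for TCF7L2 212759_s_at, BCL9L 227616_at and TLE3 212770_at. For TCF7L2 212759_s_at, A and B lie above C and D in each of the 4 groups, by 0.51 to 0.82.

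LEF1, the factor that appears in many colorectal cancers, rose in siTAZ cells and fell in sibcat and APC cells. Its brightest probe set, 221558_s_at, read 10.12, 10.01, 9.97 and 9.96 in siTAZ cells, 9.51, 9.48, 9.35 and 9.38 in sibcat cells, 9.44, 9.43, 9.30 and 9.28 in APC cells, and 9.76, 9.63, 9.56 and 9.72 in siGFP cells. siTAZ arrays lay above siGFP, and sibcat and APC arrays lay below it and overlapped each other. The LEF1 level in siTAZ cells was higher by 0.35 (1.27-fold, SE 0.07, limma adjusted p = 9e-04). It fell by 0.24 in sibcat cells (limma adjusted p = 0.0127) and by 0.30 in APC cells (limma adjusted p = 0.00224). After a further quantile normalisation the sibcat value was −0.20 and no longer passed (limma adjusted p = 0.0534). With the ACTB gap as a covariate the siTAZ value was 0.23 and still passed (limma adjusted p = 0.0177).

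A second LEF1 probe set, 210948_s_at, read 5.77, 5.96, 5.72 and 5.79 in siTAZ cells, 5.21, 5.47, 5.08 and 5.38 in sibcat cells, 5.39, 5.59, 5.81 and 5.45 in APC cells, and 5.80, 5.90, 5.58 and 5.85 in siGFP cells. Only its sibcat arrays lay wholly below siGFP, with a difference of −0.50 (limma adjusted p = 0.00137). The siTAZ difference was 0.03 (limma adjusted p = 0.912) and the APC difference −0.22 (limma adjusted p = 0.144). The remaining LEF1 probe set, 221557_s_at, stayed near the median level at means of 4.96 to 5.13 and was not called against siGFP.

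TCF7L1, the repressor-type factor, had 1 probe set, 221016_s_at. It read 6.40, 6.39, 6.01 and 6.27 in siTAZ cells, 6.08, 6.06, 5.93 and 5.98 in sibcat cells, 5.29, 5.95, 5.57 and 5.18 in APC cells, and 5.73, 5.85, 5.77 and 5.56 in siGFP cells. All siTAZ and all sibcat arrays were above all siGFP arrays, and APC arrays spread across the siGFP range. TCF7L1 rose in siTAZ cells by 0.54 (SE 0.13, limma adjusted p = 0.00651), which became 0.33 with the ACTB gap as a covariate (limma adjusted p = 0.133). The sibcat difference of 0.28 did not pass (limma adjusted p = 0.141). In a fit of the 2 groups alone it was 0.29 and passed (limma adjusted p = 0.0222). The APC difference was −0.23 (limma adjusted p = 0.251), and without APC replicate B, which read 5.95, it was −0.38 and passed (limma adjusted p = 0.0166).

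BCL9L, the paralogue of BCL9 that joins beta-catenin to PYGO proteins, rose on both probe sets in siTAZ and in sibcat cells. On 228065_at it read 6.45, 6.39, 6.51 and 6.45 in siTAZ cells, 6.51, 6.88, 6.62 and 6.56 in sibcat cells, 5.92, 6.10, 6.03 and 6.20 in APC cells, and 6.01, 6.05, 6.06 and 5.94 in siGFP cells. Both siRNA groups stood above siGFP, and APC overlapped it. The differences were 0.44 in siTAZ (SE 0.08, limma adjusted p = 0.000556), 0.63 in sibcat (SE 0.08, limma adjusted p = 8.99e-06) and 0.05 in APC cells (95% interval −0.12 to 0.21, limma adjusted p = 0.745).

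The brighter BCL9L probe set, 227616_at, read 6.79, 6.74, 6.25 and 6.28 in siTAZ cells, 7.22, 7.01, 6.70 and 6.70 in sibcat cells, 6.49, 6.39, 6.10 and 6.13 in APC cells, and 6.26, 6.27, 5.81 and 5.91 in siGFP cells. As on 212759_s_at, A and B exceeded C and D in every group. All sibcat arrays were above all siGFP arrays, and the siTAZ and APC ranges overlapped that of siGFP. BCL9L rose there by 0.84 in sibcat cells (SE 0.16, limma adjusted p = 0.000439). Its siTAZ call, 0.45 (limma adjusted p = 0.0488), ended without siTAZ replicate A or B or siGFP replicate C or D (0.36 to 0.40, adjusted p 0.129 to 0.161), and with the ACTB gap as a covariate (0.08, adjusted p = 0.719). The APC difference of 0.21 was not called (limma adjusted p = 0.377), and passed with the replicate block (limma adjusted p = 0.00915).

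BCL9 itself, on 204129_at, read 6.86, 6.69, 6.96 and 7.01 in siTAZ cells, 7.23, 7.19, 7.0 and 7.11 in sibcat cells, 6.76, 6.97, 6.97 and 6.99 in APC cells, and 6.69, 6.72, 6.76 and 6.81 in siGFP cells. Only the sibcat arrays were clear of siGFP. BCL9 rose in sibcat cells by 0.39 (SE 0.08, limma adjusted p = 0.00103), with 0.14 in siTAZ cells (limma adjusted p = 0.286). The APC difference was 0.18 (limma adjusted p = 0.12), and without APC replicate A it was 0.23 and passed (limma adjusted p = 0.047).

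PYGO1 and PYGO2, the PHD-finger partners of the BCL9 proteins, had 5 probe sets and 0 calls in any of the 6 comparisons. The 3 PYGO1 probe sets had group means of 2.42 to 3.71, below the median level in every group. PYGO2 on 225370_at averaged 5.92 ± 0.13 in siTAZ cells, 5.85 ± 0.04 in sibcat cells, 6.0 ± 0.09 in APC cells and 5.90 ± 0.15 in siGFP cells (log2, SD, n = 4 each). At the PYGO1 signals a fall or a small rise could go unseen with these arrays, so its 0 calls are not evidence of equal expression. Over the whole set, 21 probe sets reached the median level in every group, 5 reached it in none and 2 in some.

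Counts over the set were read against the whole array. In siTAZ cells 10 of 28 probe sets rose and 3 fell, where 20.3% of all probe sets were called, 10.5% higher and 9.78% lower. In sibcat cells 5 rose and 7 fell, where 25.6% were called, 13.4% higher and 12.2% lower. In APC cells 7 rose, all of TCF7L2, and 8 fell, where 24.0% were called, 12.7% higher and 11.3% lower. Among probe sets whose higher group mean reached the median level, the called share over the array was 35.7% in siTAZ, 44.0% in sibcat and 39.1% in APC cells. Of the set's own probe sets that met this limit, 13 of 22 were called in siTAZ, 12 of 22 in sibcat and 15 of 21 in APC cells. Median differences over the 28 were 0.11 in siTAZ, 0.03 in sibcat and 0.04 in APC cells, against 0.01, 0.00 and 0.02 over all probe sets. Probe sets of 1 gene share transcripts and are not separate observations. By gene, taking the brightest probe set, 6 of 9 were called in siTAZ, 5 in sibcat and 4 in APC cells, where 30.1%, 35.9% and 33.7% of 19775 genes were.

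Differences from siGFP cells were also taken within each pair of letters, for the brightest probe sets. For TLE3 the differences in A and B and in C and D were 0.61 and 0.61 in siTAZ, −0.59 and −0.57 in sibcat, and −0.30 and −0.46 in APC cells. For LEF1 they were 0.37 and 0.32 in siTAZ, −0.20 and −0.28 in sibcat, and −0.26 and −0.35 in APC cells. For TCF7L2 on 212761_at they were 0.27 and 0.22 in siTAZ, 0.29 and 0.19 in sibcat, and 0.93 and 0.85 in APC cells. BCL9 differed more between the pairs, with 0.07 and 0.20 in siTAZ, 0.51 and 0.27 in sibcat, and 0.16 and 0.20 in APC cells. TLE1 on 203221_at had −0.32 and −0.32 in siTAZ and −0.53 and −0.60 in APC cells, and its uncalled sibcat difference changed sign, at 0.04 and −0.14.

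**Figure D3:**
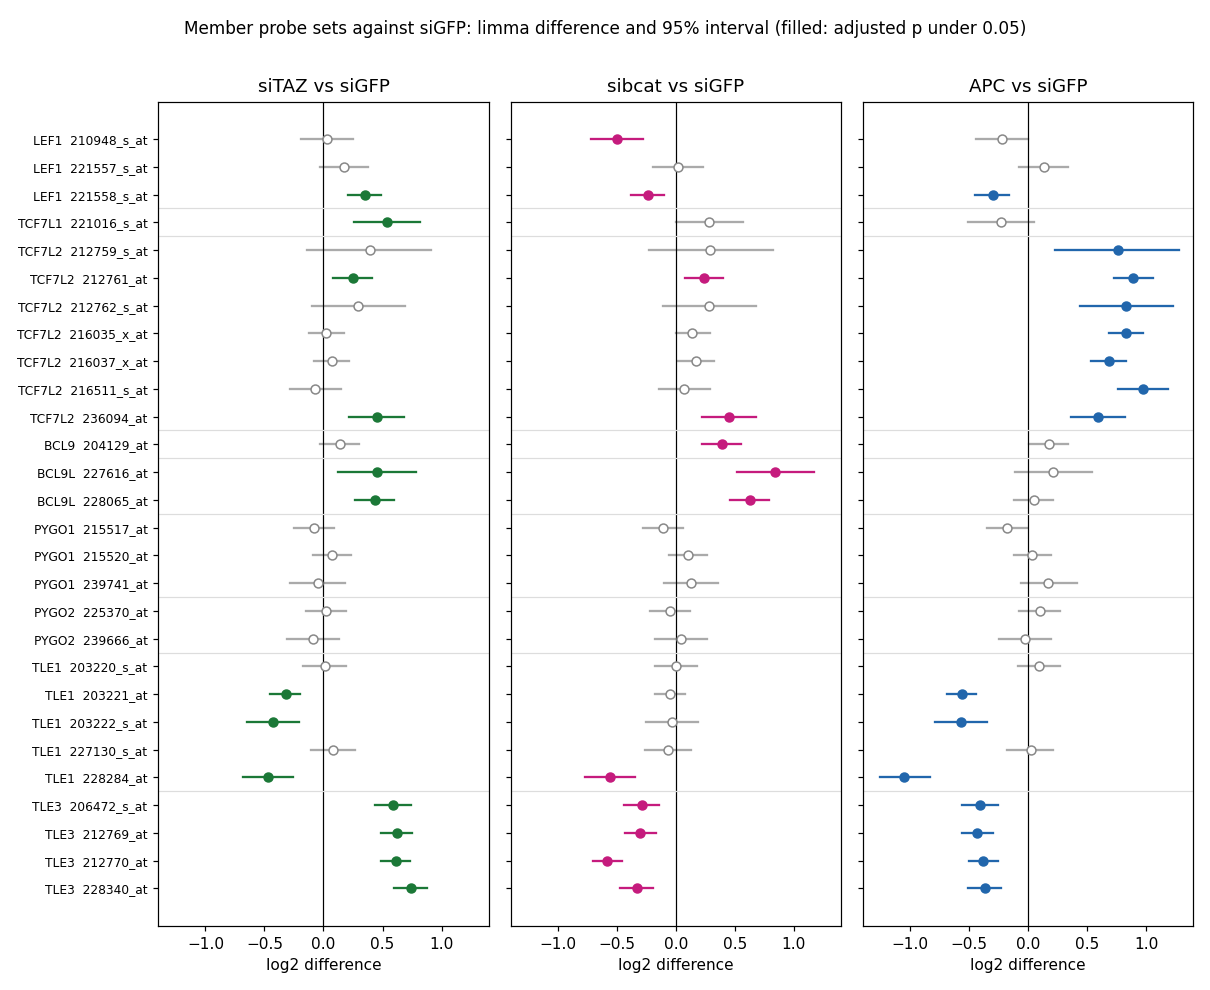
Log2 differences from siGFP cells for the 28 probe sets in siTAZ, sibcat and APC cells, with 95% intervals from the limma fit. Filled points passed at an adjusted p under 0.05. The 7 TCF7L2 probe sets lie right of 0 in APC cells and the 4 TLE3 probe sets lie right of 0 in siTAZ cells and left of it in sibcat and APC cells.

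Setting the treated groups against each other tested whether the responses differed. Between siTAZ and sibcat cells 9 of 28 probe sets were called, where 26.7% of all were. TLE3 was higher in siTAZ than in sibcat cells on all 4 probe sets, by 0.88 to 1.19, the last a 2.28-fold ratio on 212770_at (limma adjusted p = 4.38e-11). LEF1 on 221558_s_at was higher in siTAZ than in sibcat cells by 0.59 (limma adjusted p = 2.39e-06). On 210948_s_at LEF1 was higher by 0.52 (limma adjusted p = 0.00078). BCL9 was lower in siTAZ than in sibcat cells, at −0.25 (limma adjusted p = 0.0222), though the arrays overlapped. The BCL9 call ended in 7 of 18 alternative fits, among them C and D alone, at −0.07 (limma adjusted p = 0.581). TLE1 was lower in siTAZ than in sibcat cells on 203221_at, at −0.28 (limma adjusted p = 0.00207), and on 203222_s_at, at −0.41 (limma adjusted p = 0.00712). On 228284_at the TLE1 difference was 0.09 (95% interval −0.12 to 0.30, limma adjusted p = 0.611). With the ACTB gap as a covariate 228284_at was higher in siTAZ cells, at 0.21, and passed (limma adjusted p = 0.0361). Under that covariate 203221_at and 203222_s_at stayed lower, at −0.25 and −0.31, so the TLE1 probe sets then differed in sign. BCL9L did not pass here, with −0.39 (limma adjusted p = 0.0753) on 227616_at and −0.19 (limma adjusted p = 0.0883) on 228065_at, and the first passed with the replicate block (limma adjusted p = 7e-05).

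Between siTAZ and APC cells 14 were called, where 32.4% of all were. TLE3 was higher in siTAZ than in APC cells on all 4 probe sets, by 0.99 to 1.11, and LEF1 by 0.65 on 221558_s_at (limma adjusted p = 4.5e-07). TCF7L1 was higher in siTAZ than in APC cells by 0.77 (limma adjusted p = 0.000163). BCL9L was also higher on 228065_at, by 0.39 (limma adjusted p = 0.00082), and was not called on 227616_at. TLE1 was higher on 203221_at, by 0.24 (limma adjusted p = 0.00482), and on 228284_at, by 0.58 (limma adjusted p = 0.000192). On 203222_s_at the TLE1 difference was 0.14 (limma adjusted p = 0.378), and with the ACTB gap as a covariate 0.31 (limma adjusted p = 0.0344). TCF7L2 was lower in siTAZ than in APC cells on 5 of 7 probe sets, with −1.04 on 216511_s_at. The 2 not called passed with the ACTB gap as a covariate. Their values were then −0.93 on 212759_s_at (limma adjusted p = 0.000915) and −0.40 on 236094_at (limma adjusted p = 0.000168). With the replicate block 212759_s_at passed as well, at −0.37 (limma adjusted p = 0.00168, and 0.303 without it), as did BCL9L on 227616_at, at 0.24 (limma adjusted p = 0.00338). The call on 212762_s_at (limma adjusted p = 0.033) ended without siTAZ replicate B, C or D or APC replicate B, C or D, at −0.54 to −0.39.

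Between APC and sibcat cells 12 were called, where 31.6% of all were. TCF7L2 was higher in APC than in sibcat cells on 5 of 7 probe sets, by 0.51 to 0.90. The 2 not called passed with the ACTB gap as a covariate. Their values were then 0.72 on 212759_s_at (limma adjusted p = 0.00201) and 0.26 on 236094_at (limma adjusted p = 0.00182). With the replicate block 212759_s_at passed as well, at 0.46 (limma adjusted p = 0.000291, and 0.187 without it), as did LEF1 on 210948_s_at, at 0.27 (limma adjusted p = 0.0401). The call on 212762_s_at (limma adjusted p = 0.0306) ended without APC replicate B, C or D or sibcat replicate B, C or D, at 0.49 to 0.56. TCF7L1 was lower in APC than in sibcat cells, at −0.51 (limma adjusted p = 0.0056), and BCL9L was lower, at −0.63 (limma adjusted p = 0.00402) and −0.58 (limma adjusted p = 1.45e-05). TLE1 was lower in APC than in sibcat cells on the 3 probe sets above the median level, at −0.54 to −0.49. LEF1 on 221558_s_at differed by −0.07 (95% interval −0.21 to 0.07, limma adjusted p = 0.519). TLE3 was called on 212770_at alone, at 0.19 (limma adjusted p = 0.0135), and not without sibcat replicate B (limma adjusted p = 0.0521). The 3 comparisons with siGFP share its 4 arrays, and the comparisons between treated groups share arrays in turn, so none is independent of the others.

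Other genes of the nuclear Wnt machinery moved in both directions. Of 39 analysed, 11 rose and 6 fell in siTAZ cells, 11 rose and 13 fell in sibcat cells, and 13 rose and 9 fell in APC cells. Over all genes 17.0% rose and 13.1% fell in siTAZ cells, 18.6% rose and 17.3% fell in sibcat cells, and 16.6% rose and 17.1% fell in APC cells. TLE4, a further Groucho corepressor, had means of 8.91 in siTAZ cells, 6.91 in sibcat cells, 7.86 in APC cells and 8.19 in siGFP cells. In siTAZ cells it rose by 0.71 (limma adjusted p = 1.86e-06), and it fell by 1.28 in sibcat cells (limma adjusted p = 9.44e-10) and by 0.33 in APC cells (limma adjusted p = 0.00278). On its 5 probe sets, 2 rose in siTAZ cells, 1 fell in sibcat cells and 1 fell in APC cells.

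NLK, a kinase that phosphorylates TCF/LEF proteins, rose by 0.57 in siTAZ cells and fell by 0.80 in sibcat and by 1.38 in APC cells. All 3 NLK probe sets fell in sibcat and in APC cells, and 2 rose in siTAZ cells. CDK8, a Mediator kinase, fell by 0.80 in sibcat cells and by 1.09 in APC cells on its brightest probe set, and all 3 of its probe sets fell in both. In siTAZ cells CDK8 rose by 0.29 on the brightest (limma adjusted p = 0.00439), the 1 of 3 called there. CTNNBIP1 (ICAT), which blocks the binding of beta-catenin to TCF proteins, had means of 7.29 in siTAZ cells, 8.76 in sibcat cells, 7.98 in APC cells and 7.19 in siGFP cells. It rose by 1.57 in sibcat cells (limma adjusted p = 5.76e-12) and by 0.79 in APC cells (limma adjusted p = 2.6e-08).

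SSBP2 and SSBP3 bind LDB adaptors and are part of the beta-catenin enhancer complex. SSBP2 averaged 6.88 in APC cells and 5.85 in sibcat cells against 4.44 in siGFP cells, where it was below the median level, so the size of its rise of 2.44 in APC cells is uncertain (limma adjusted p = 1.63e-11). SSBP3 rose by 0.98 in sibcat cells and by 0.83 in APC cells. These values are of the brightest probe sets. Of 6 SSBP2 probe sets, 2 rose in sibcat cells and 4 in APC cells, and of 3 SSBP3 probe sets, 2 rose in each. HBP1, a repressor of TCF activity, rose on its brightest probe set, in siTAZ cells by 0.81 (limma adjusted p = 8.69e-10), in sibcat cells by 0.79 (limma adjusted p = 4.31e-10) and in APC cells by 0.14 (limma adjusted p = 0.0206). Of its 3 probe sets, 1 was called in siTAZ cells, 1 in sibcat cells and 0 in APC cells in the fit over all probe sets. CHD8, a chromatin remodeller that binds beta-catenin, rose in siTAZ cells by 0.48 (limma adjusted p = 0.000259) and in sibcat cells by 0.26 (limma adjusted p = 0.0249), and fell in APC cells by 0.28 (limma adjusted p = 0.014). TLE2 fell by 1.08 in APC cells (limma adjusted p = 4.85e-09), on both probe sets, and rose in siTAZ cells by 0.32 (limma adjusted p = 0.00332), on 1 of 2.

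**Figure D4:**
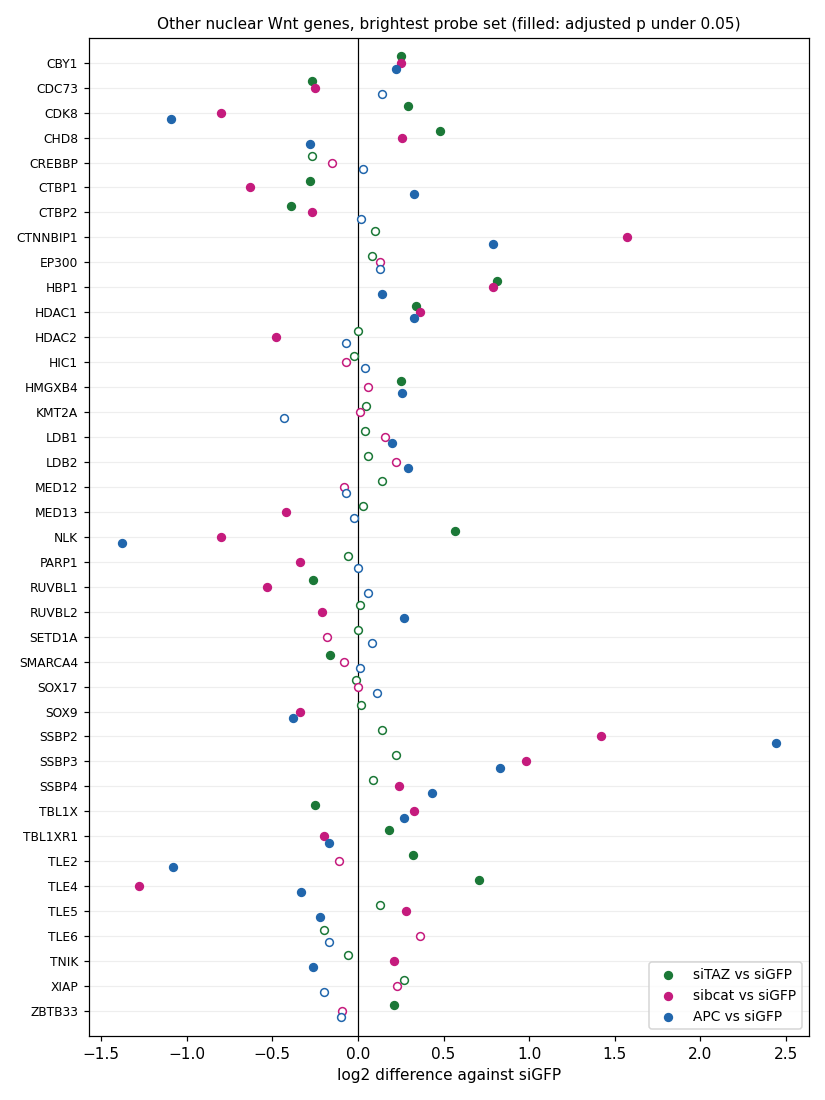
Log2 differences from siGFP cells for the other nuclear Wnt genes, on the brightest probe set of each, in siTAZ, sibcat and APC cells. Filled points passed at an adjusted p under 0.05. The longest excursions are SSBP2 in APC cells at 2.44 and CTNNBIP1 in sibcat cells at 1.57.

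The genes whose brightest probe sets ran most like those of the 3 measured factors over the 16 arrays were found by Pearson correlation over 12564 genes, as a description in which arrays of a group share their condition. For LEF1 these were RRAGA (0.98), NGFR (0.97) and PHF13 (0.97), and SIRT7 ran most opposite (−0.97). NGFR averaged 7.54 in siTAZ cells, 5.57 in sibcat cells, 5.15 in APC cells and 6.50 in siGFP cells, the same order as LEF1. For TCF7L2 they were FAM241A (0.99), RBPMS (0.98) and CSGALNACT1 (0.98), with CADM1 opposite (−0.99). RBPMS averaged 6.21 in siTAZ cells, 6.35 in sibcat cells, 7.93 in APC cells and 5.56 in siGFP cells. For TCF7L1 they were HYAL3 (0.92), CYP3A7-CYP3A51P (0.91) and CLCN7 (0.90), with ZCCHC4 opposite (−0.94).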

How the data were processed

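RNA of SW480 cells was measured on 16 Affymetrix arrays. The authors deposited log2 expression values made with RMA, per the submitters' processing notes, which name no version; RMA corrects background, quantile-normalises arrays and summarises each probe set. The values ran from 1.8 to 14.56 and their log2 scale was read from that range. Quantile normalisation hides any change in total RNA per cell. The labels call the arrays of a group biological replicates and do not say that they came from separate cultures, so p-values cover only the spread among these arrays, part of which may be technical, and precision is limited by having 4 arrays a group.

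Of 54675 probe sets, 62 controls were left out, and the other 54613 entered 1 limma fit (limma 3.58.1, R 4.3.3; lmFit and eBayes over all 16 arrays, no block), with Benjamini-Hochberg adjustment over all of them and a call at an adjusted p under 0.05. Gene symbols came from the platform annotation, in which 41091 tested probe sets had 1 gene, 1801 several and 11721 none. Gene counts used the probe set with the highest mean for each of 19775 genes, in a fit of their own. ACTB and GAPDH gaps were compared by exact permutation tests. Promoter windows are RefSeq's (GRCh38.p14). Figures used matplotlib 3.10.9.

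Same-letter arrays of different groups deviated together from their group means (24 of 24 correlations between 0.12 and 0.40). Arrays with different letters within A and B or within C and D correlated at a similar 0.06 to 0.36. Arrays across those pairs of letters correlated at −0.44 to −0.08. The shared deviation thus followed A and B against C and D, and these values do not establish pairing by single letter. The main fit had no block for either, and some calls changed with the replicate block. The alternatives were the replicate block, 2 groups alone, the ACTB gap as a covariate, renewed quantile normalisation, a filter on dim probe sets, a mean-variance trend, array weights, other ways to represent a gene and leaving out each array. Alternatives that set replicates A and B apart from the other replicates, by a model term or by separate fits, were chosen after seeing the data. Members and lists were chosen with earlier results of these data known. Other genes were named by rule, as the 4 largest called differences of the listed nuclear Wnt genes per comparison and the genes most like LEF1, TCF7L1 and TCF7L2. RUNX1 of that list was not analysed here.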

Additional observations from a re-analysis of the deposited data

Results flagged for a closer look

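Among 112 groups of 4 arrays (28 probe sets by 4 groups), 5 held an array whose distance from the rest was past Dixon's 95% limit, and chance alone gives about 1 in 20. LEF1 on 221557_s_at read 5.06 in siTAZ replicate C, with its other siTAZ arrays at 5.15 to 5.16. BCL9 on 204129_at read 6.76 in APC replicate A, with 6.97 to 6.99 on the others. PYGO1 on 215517_at read 3.39 in APC replicate C, with 3.57 to 3.6 on the others. TLE1 on 203222_s_at read 6.19 in siTAZ replicate A, with 6.45 to 6.49 on the others. TLE3 on 228340_at read 6.76 in sibcat replicate B, with 6.58 to 6.59 on the others.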

How the results depend on the processing

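In replicates A and B alone, with 2 arrays a group, 8 member probe sets were called in siTAZ cells instead of 13, 7 in sibcat cells instead of 12 and 10 in APC cells instead of 15, where 9.51%, 14.7% and 12.4% of all probe sets were. Other nuclear Wnt genes called came to 10 in siTAZ, 15 in sibcat and 14 in APC cells instead of 17, 24 and 22, where 18%, 24.4% and 21.2% of all genes were. Replicates C and D alone also had 2 arrays a group. There 12, 10 and 16 member probe sets were called in siTAZ, sibcat and APC cells. Over all probe sets 17.1%, 21.2% and 20.0% were called there. Other nuclear Wnt genes called there came to 13, 21 and 17, where 26.7%, 31.8% and 29.7% of all genes were. Fewer arrays entered each of these fits than the main fit, and why their counts differed was not tested. With the replicate block, 14, 14 and 16 member probe sets were called in siTAZ, sibcat and APC cells against siGFP, where 23.9%, 29.3% and 27.8% of all probe sets were, and 10, 14 and 16 for siTAZ against sibcat, APC against sibcat and siTAZ against APC, where 30.3%, 35.0% and 35.7% were. With the ACTB gap as a covariate 9 were called in siTAZ cells, where 18% of all probe sets were. Over 18 alternatives, 6 of 13 siTAZ, 6 of 12 sibcat and 9 of 15 APC calls against siGFP passed in every one, and no called difference changed sign. The causes of lost calls were not tested. Signals near or below the median level, as for PYGO1, limit what could be seen.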

Other observations

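The gap between replicates A and B and replicates C and D was ranked for each member against all probe sets. For TCF7L2 on 212759_s_at, A and B exceeded C and D by 0.68 over all arrays, larger in size than for 99.6% of probe sets, and for BCL9L on 227616_at by 0.41, larger than for 98.5%. The other TCF7L2 probe sets ran from −0.20 to 0.22 and the other BCL9L probe set was at −0.01. The TLE3 probe sets ran from −0.04 to 0.06.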
